A study of Mus musculus with 24 samples.

Results

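Glycolysis and hypoxia response genes were followed in the murine Bcr-Abl+ leukaemia line DA1-3B after plasmids for forms of p65/RelA had been introduced. p65/RelA is the main activating member of the NF-kB family of transcription factors. The set comprised 33 genes picked by name for what they do, with earlier results of these data known. They were 2 glucose transporters, 15 enzymes of glycolysis, 2 enzymes that set the level of fructose-2,6-bisphosphate, 3 genes of pyruvate and lactate handling, and 11 further genes of the response to low oxygen. All 33 were read by the array, by 58 probes among 30342 gene names, and each gene was represented by its brightest probe. A gene was tested where some group had all 4 of its arrays well above background in that probe, which left 29 of the 33 and 15058 genes in all. The probes of those 29 were above background on all 24 arrays. Eno2, Adm, P4ha2 and Mxi1 were above background on 0 of 24 arrays and were not tested.

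The 24 samples, 6 groups of 4, all came from the same Bcr-Abl positive line of the strain C3H eOuJ, each hybridised to a one-colour array. VOID cells received the empty plasmid, WT cells full-length p65/RelA, and D361E cells a mutant at residue 361 that the series text calls non-cleavable. The group p1-361 received residues 1 to 361, p363-549 the remaining carboxy-terminal stretch, which the protocol text starts at residue 362, and the group both received the 2 fragments together. No label names the promoter of the plasmids, the share of cells that took one up, or a removal of the line's own Rela, and none says whether the 4 samples of a group were separate cultures, so the spread that p-values measure may be technical. All 8 general haematopoietic markers listed for the check of the line (Ptprc, Spi1, Csf2rb, Il3ra, Lyn, Vav1, Coro1a and Laptm5) were above background on every array.

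Glycolysis splits glucose into pyruvate in a chain of enzymatic steps, and cells that lack oxygen, as well as many tumour cells, turn the pyruvate into lactate and export it. When oxygen falls, the hypoxia-inducible factors, dimers of an oxygen-sensitive alpha subunit and ARNT, escape hydroxylation and bind short sites with the core ACGTG or GCGTG. They raise glucose transporters, most glycolytic enzymes and genes such as Vegfa and Bnip3, and NF-kB is known to act on the transcription of Hif1a.

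Levels are log2 processed signal minus the array's own 75th percentile, so a level of 0 is the signal of a spot at that percentile. The 75th percentile itself ran from 640.9 to 1223, and 49.4% to 55.5% of the 43020 spots that are not controls were well above background on each array. Precision is limited by having 4 arrays a group. The sample titles carry the numbers 1 to 24, which fall into 4 sets of 6 consecutive numbers, with 1 array of each group in each set. The labels do not say what a set was, such as a day or a culture, and the 6 arrays of each set lay on 6 different slides. For 3 arrays, replicate 4 of p1-361, p363-549 and both, the expression pattern was closer to the mean of another fragment group than to their own. Over 200 genes, that of p1-361 correlated at 0.78 with p363-549 and at 0.14 with its own group. That of p363-549 correlated at 0.97 with both (own group -0.56), and that of both at 0.71 with p1-361 (own group -0.08). The arrays were kept in the groups of their labels, and the reason for the pattern was not tested. Results that change without these 3 arrays are given with and without them.

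None of the 29 genes passed in any comparison of the transfection groups. In limma's moderated F test for any difference among the 6 groups, 0 of 29 reached a Benjamini-Hochberg adjusted p under 0.05, where 2.84% of all genes tested did. The smallest adjusted p among them was 0.0614, that of the lactate exporter Slc16a3. Each construct was then set against VOID. There 0 of 29 passed in WT (0.485% of all genes tested), D361E (0.657%), p1-361 (0.691%), p363-549 (0.591%) and both (4.38%). At an unadjusted p under 0.05 the counts were 1, 0, 2, 2 and 2 of 29, where 5.67%, 6.32%, 7.83%, 6.75% and 18.6% of all genes were under that value. Against WT, 0 of 29 passed in D361E (0.0797% of all genes tested), p1-361 (0.126%), p363-549 (0.126%) and both (1.04%). The unadjusted counts there were 3, 0, 4 and 1 of 29, beside 3.07%, 3%, 5.25% and 12.6% of all genes.

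These counts rose when the sets of sample numbers entered the model or the 3 unlike arrays were left out, as did the counts over all genes. With the sets as a fixed block the F test passed for 3 of 29, Slc2a1 (adjusted p = 0.0182), Eno1 (0.0497) and Slc16a3 (0.0237), beside 11.1% of all genes. Without the 3 arrays it passed for Eno1, Pfkfb3 and Slc16a3, beside 10.1%. With both changes it passed for 14 of 29, beside 41%. With the block alone 0 of 29 passed in WT (1.46% of all genes), D361E (1.8%) and p363-549 (1.76%) against VOID, and 0 of 29 in p1-361 (0.139%), p363-549 (0.266%) and both (7.3%) against WT. With both changes 3 of 29 passed in p1-361 against VOID (8.83% of all genes), Slc2a1 and Ndrg1 as higher and Slc16a3 as lower. In p363-549 against VOID 2 of 29 passed (3.71%), Aldoc as higher and Slc16a3 as lower. In both 4 of 29 passed against VOID (33.5%), Slc2a1 and Bnip3l as higher, Gapdh and Pfkfb3 as lower, and 3 of 29 against WT (31.6%), Slc16a3 as higher, Pfkfb3 and Vegfa as lower. In p1-361 (1.97%) and p363-549 (1.87%) against WT 0 of 29 passed.

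Markers of other cell types differed between the groups. In WT against VOID 5 of 8 tested erythroid markers were lower, and the list's summed signal, in multiples of the 75th percentile, ran from 201.1 to 421.1 in VOID, 66.2 to 118.2 in WT and 110.03 to 232.5 in D361E. Of 9 monocyte and macrophage markers 2 were higher than in VOID in each of WT, p1-361 and p363-549, and 3 in D361E. Fcer1a, of 7 mast cell markers, was lower in every construct than in VOID. In both against VOID 6 of 8 erythroid and 4 of 7 mast cell markers were lower and 3 of 9 monocyte and macrophage markers higher. The summed signal of the monocyte and macrophage list went the other way, from 5.49 to 10.84 in both against 11.47 to 17.08 in VOID. Their part in the differences below was not tested. Of all genes tested, 0.485% passed in WT, 0.657% in D361E, 0.691% in p1-361, 0.591% in p363-549 and 4.38% in both against VOID, in either direction.

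The spread within each group was wide for these genes. Their median residual standard deviation within groups was 0.47 on the log2 scale, against 0.32 over all genes tested. The groups accounted for a median of 18.6% of a member's total sum of squares and the 4 sets of sample numbers for 54.7%. Over all genes tested those medians were 23.6% and 35.9%. The sets took the larger share in 20 of the 29 genes, up to 86.1% for the hexokinase Hk2 and 85.4% for the histone demethylase Kdm3a. At the other end were the fructose-2,6-bisphosphate enzyme Pfkfb3, with 3.97% between sets and 59.3% between groups, and Slc16a3, with 9.06% and 62%. Between slides lay 32.8% for Pfkfb3 and 38.7% for Slc16a3, against medians of 8.76% for the members and 16.9% over all genes tested. No group lay on every slide, so the shares of slides and groups overlap.

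**Figure D1:**
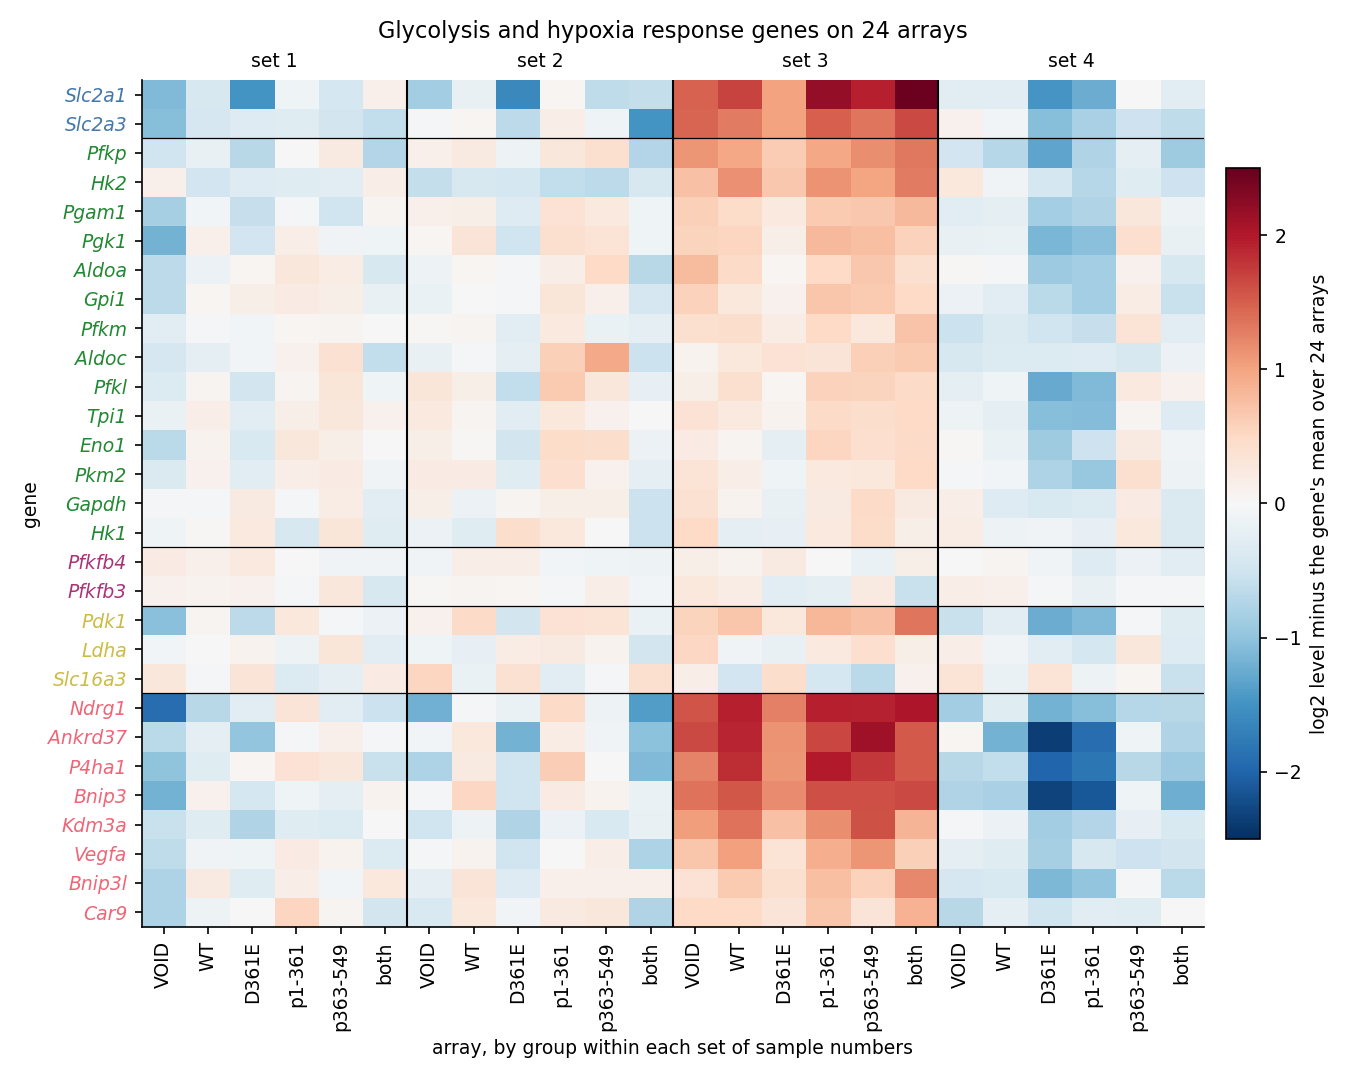
Level of the 29 tested genes (rows, coloured and divided by role) on the 24 arrays (columns, by group within the 4 sets of sample numbers), as the log2 difference from each gene's mean over 24 arrays, red above and blue below. The block of the third set is red in nearly every row, 23 of 29 genes passing as higher there, while Pfkfb3 and Slc16a3 near the middle show no such block.

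The third set, samples 13 to 18, held the highest levels. With group in the model, each set was compared with the mean of the other 3, a comparison made after the data had been seen. The arrays of 1 set share their deviations from the group means (median correlation 0.41) and are not independent samples of a set. The SE and p-values of all set comparisons thus measure the spread of arrays within sets, not the spread from set to set. In the third set 23 of 29 genes were higher and 0 lower, where 26.7% of all genes tested were higher and 24.1% lower. The median difference was 0.71 for the 29 genes and 0.08 for all genes tested. Of the 29, 10 exceeded a difference of 1 on the log2 scale, as did 2.4% of all genes. The third-set array was the highest of the 4 in all 6 groups for 17 of 29 genes (9.79% of all genes), and for 11 of 29 every one of the 6 third-set arrays lay above all 18 others (4.04% of all genes). Those 11 were Slc2a1, Slc2a3, Hk2, Pfkp, Bnip3, Bnip3l, Vegfa, Ankrd37, P4ha1, Kdm3a and Ndrg1. In bulk samples, more cells expressing a gene and more RNA per cell cannot be told apart.

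Since the third set weighs on any mean that holds it, sets 1, 2 and 4 were then compared among themselves, each against the mean of the other 2. In the first set 0 of 29 genes were higher and 0 lower (10.7% and 12.4% of all genes), and in the second set also 0 and 0 (0.0133% each). In the fourth set 0 were higher (11.6% of all genes) and 7 lower (10.4%), Pfkp, Tpi1, Pdk1, Bnip3, Bnip3l, Ankrd37 and P4ha1. The 3 unlike arrays all lie in the fourth set, and without them 4 were lower (7.44% of all genes), Pfkm, Pfkp, Tpi1 and Bnip3. Slc2a1 had means of 3.21, 3.14 and 3.19 in sets 1, 2 and 4. An F test over the sets passed for 22 of 29 genes and for 58.6% of all genes tested, so differences between sets were common across the whole array.

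**Figure D2:**
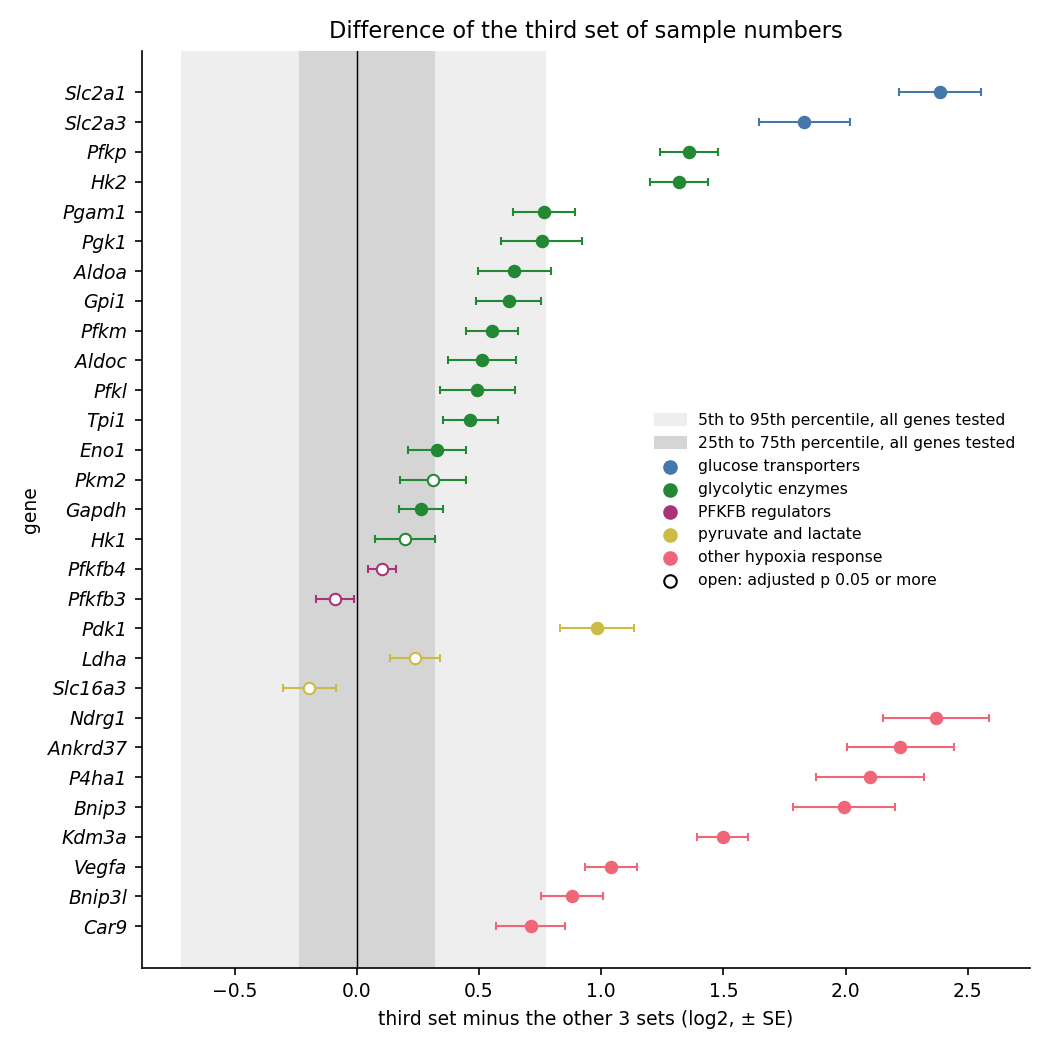
Mean of the third set minus that of the other 3 sets (log2, horizontal axis, ± SE) for the 29 genes by role. Filled points passed the test and open points did not; the grey bands span the middle of all genes tested, from the 25th to the 75th and the 5th to the 95th percentile. The glucose transporters and most genes of the low-oxygen response lie to the right of both bands, and the 2 Pfkfb genes, Ldha and Slc16a3 lie inside the inner one.

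Glucose enters the cell through the transporters Slc2a1 (GLUT1) and Slc2a3 (GLUT3), and both passed. In the third set Slc2a1 stood at 5.24 in VOID, 5.46 in WT, 4.78 in D361E, 5.98 in p1-361, 5.71 in p363-549 and 6.22 in both. On the other 18 arrays it ran from 2.17 to 3.90 with a median of 3.36. No third-set array overlapped with these, and the difference was 2.39 ± 0.17 (SE, 6 arrays against 18, adjusted p = 1.03e-08), a factor of 5.23. Within single groups it was between 1.97 and 2.69. Slc2a3 ran from 6.56 to 7.19 in the third set, with a median of 6.95, and from 4.06 to 5.71 elsewhere, with a median of 5.11. Its difference was 1.83 ± 0.19 (adjusted p = 4.96e-07).

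Among the glycolytic enzymes 12 of 14 tested were higher in the third set, with a median difference of 0.53. Hk2, the inducible hexokinase that traps glucose in the cell, ran from 2.77 to 3.39 there and from 1.39 to 2.37 on the other arrays, a difference of 1.32 ± 0.12 (adjusted p = 1.26e-07). The platelet-type phosphofructokinase Pfkp was higher by 1.36 ± 0.12, and the liver and muscle types Pfkl and Pfkm by 0.49 and 0.55. The isomerase Gpi1 was higher by 0.62, the aldolases Aldoa and Aldoc by 0.65 and 0.51, and Tpi1, which interconverts the triose phosphates, by 0.46. In the lower part of the chain Pgk1 and Pgam1 were higher by 0.76 and 0.77, the enolase Eno1 by 0.33 and Gapdh by 0.26 (adjusted p = 0.0215). Pkm2 and Hk1 did not pass. The pyruvate kinase Pkm2 had a difference of 0.31 (adjusted p = 0.0623) and Hk1 one of 0.20 (adjusted p = 0.195), which became -0.01 after quantile normalization. Aldoa, Tpi1, Gapdh and Eno1 kept values above 0 after that normalization, at 0.21, 0.23, 0.03 and 0.06, and no longer passed.

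The fructose-2,6-bisphosphate enzymes, which tune phosphofructokinase, did not pass in the third set. Pfkfb3 differed by -0.09 ± 0.08 and Pfkfb4 by 0.10 ± 0.06. Of the 3 genes for pyruvate and lactate, Pdk1, a kinase that shuts pyruvate out of the mitochondrial cycle, was higher by 0.98 ± 0.15 (adjusted p = 3.63e-05). Lactate dehydrogenase Ldha (0.24, adjusted p = 0.0594, and -0.02 after quantile normalization) and the lactate exporter Slc16a3 (-0.19, adjusted p = 0.142) did not pass.

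All 8 tested genes of the wider low-oxygen response were higher in the third set, with a median difference of 1.75. Ndrg1, a stress-induced gene, ran there from 6.17 in D361E to 6.92 in both, against 3.00 to 5.38 on the other arrays, and differed by 2.37 ± 0.22 (adjusted p = 1.6e-07), a factor of 5.17. Ankrd37 differed by 2.22 ± 0.22, with 3.98 to 4.98 in the third set and 0.51 to 3.12 elsewhere. P4ha1, a subunit of the collagen prolyl hydroxylase, differed by 2.10 ± 0.22. Its third-set arrays ran from 0.98 to 1.86 and the others from -2.11 to 0.50. Bnip3, which drives the removal of mitochondria, stood at 7.32 in VOID, 7.5 in WT, 7.14 in D361E, 7.57 in p1-361, 7.58 in p363-549 and 7.61 in both in the third set. Elsewhere Bnip3 ran from 3.64 to 6.47, and its difference was 1.99 ± 0.21 (adjusted p = 6.35e-07). Kdm3a was higher by 1.5, the angiogenic factor Vegfa by 1.04 ± 0.11 (1.67 to 2.43 against 0.50 to 1.53), Bnip3l by 0.88 and Car9, a surface carbonic anhydrase, by 0.71. Among these 8 only Car9 overlapped between the third set, from 0.58 to 1.14, and the other arrays, from -0.49 to 0.81.

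**Figure D3:**
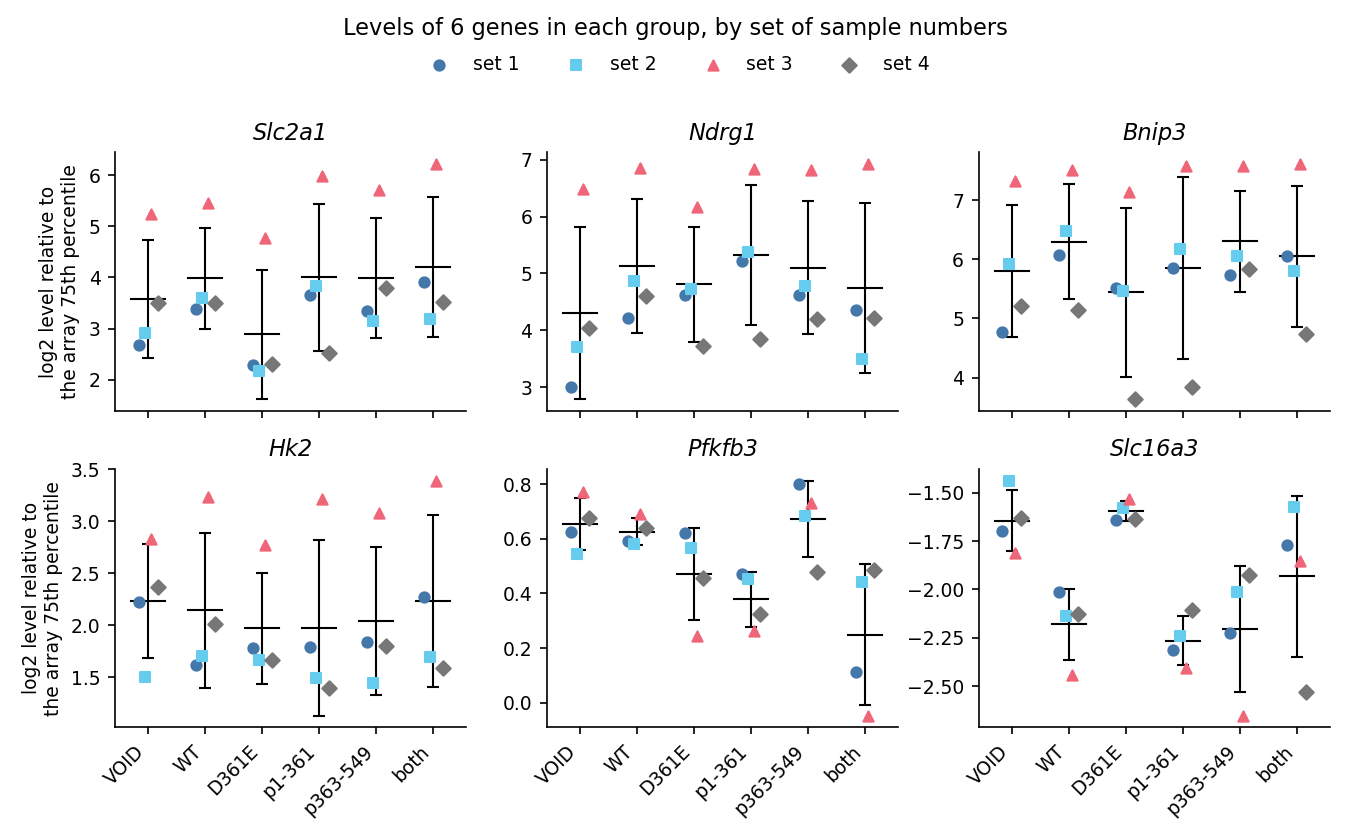
Levels of Slc2a1, Ndrg1, Bnip3, Hk2, Pfkfb3 and Slc16a3 (log2, relative to the array's 75th percentile) in the 6 groups, 1 point per array with colour and shape for the set, and lines for the mean ± SD of 4 arrays. The red triangles of the third set lie above all other points of the group in the first 4 genes, as for Slc2a1 in D361E (4.78 against at most 2.30), and take no common place in Pfkfb3 and Slc16a3.

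Technical measures were set beside this difference. The 75th percentile ran from 640.9 to 906.5 in the third set and from 675.3 to 1223 in the other sets, and the share of spots above background from 49.8% to 53.9%. With slide as a fixed block 25 of 29 genes were higher in the third set (32.8% of all genes). Among lists of other cell types, 3 of 8 tested erythroid markers were also higher there (Hba-a1 by 0.83, Hba-a2 by 0.66 and Gata1 by 0.38). The same held for 1 of 9 monocyte and macrophage markers (Cd68 by 0.89) and 1 of 8 haematopoietic markers (Ptprc by 0.51). Of all genes tested 26.7% were higher there, and nothing is read from counts near or below that share. Of the tested markers of mast cells (7), T cells (5) and B cells (1) none passed in limma's test, and of 7 fibroblast markers 0 were tested. The summed erythroid signal ran from 102.2 to 421.1 times the 75th percentile in the third set and from 66.2 to 291.7 elsewhere. Alas2, Kit, Ms4a2, Mrc1, Cd2, Cd8a, Cd79a, Ms4a1, Col1a1, Dcn and Thy1 were not above background on any array. The part of the erythroid signal in the difference was not tested.

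The bases upstream of the genes with the largest third-set differences are shown because these genes moved together and the low-oxygen response is known to act through the cores ACGTG and GCGTG. The promoter table of RefSeq (build GRCm38.p6) held 30 of the 33 genes, and Bnip3l, Ndrg1 and Slc2a3 were not matched. Each stretch below is the 170 bases before the annotated start of transcription, in the direction of the gene, with every ACGTG or GCGTG on either strand in capitals. On the opposite strand the cores read CACGT and CACGC.
Slc2a1 (chr4:119108575-119108744, + strand): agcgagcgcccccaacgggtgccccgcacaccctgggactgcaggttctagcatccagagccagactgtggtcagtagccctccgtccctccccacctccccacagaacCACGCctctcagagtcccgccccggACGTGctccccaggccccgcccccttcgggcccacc
Ankrd37 (chr8:45999851-46000020, − strand): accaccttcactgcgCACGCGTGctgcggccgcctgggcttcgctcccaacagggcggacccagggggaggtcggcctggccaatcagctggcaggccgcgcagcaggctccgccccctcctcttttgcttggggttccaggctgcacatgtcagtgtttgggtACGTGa
P4ha1 (chr10:59323126-59323295, + strand): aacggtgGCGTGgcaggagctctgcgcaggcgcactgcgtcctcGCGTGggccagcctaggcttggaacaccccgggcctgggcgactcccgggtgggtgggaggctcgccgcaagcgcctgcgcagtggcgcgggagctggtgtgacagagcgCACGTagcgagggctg
Bnip3 (chr7:138909507-138909676, − strand): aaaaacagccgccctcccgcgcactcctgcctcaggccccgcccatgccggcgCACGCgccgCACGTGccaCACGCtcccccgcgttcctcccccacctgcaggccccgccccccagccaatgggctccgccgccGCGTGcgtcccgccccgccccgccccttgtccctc

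In these stretches Slc2a1 had 2 matches, Ankrd37 and P4ha1 had 3 each, and Bnip3 had 5. The CACGTG of Bnip3 counts on both strands, and the CACGCGTG of Ankrd37 holds 2 overlapping matches. Over windows of 250 bases before to 50 after a start, the 26 tested genes in the table had 42 windows. ACGTG was in 21 of these (50%), against 25.1% of the 12150 windows of all tested genes matched by symbol and 19.6% of all 32851. GCGTG was in 23 of 42 (54.8%), against 48.6% and 32.4%, and at least 1 of the cores was in 32 of 42 (76.2%), against 60.2% and 43.8%. Genes over 1 log2 higher in the third set had 11 windows, with ACGTG in 54.5%, GCGTG in 63.6% and either in 72.7%. Ldha, Pfkfb3 and Slc16a3, which did not pass in the third set, had ACGTG as well. The cores thus did not set the genes of the third-set rise apart. The kappa-B consensus of NF-kB was in the windows of Vegfa and Car9, 2 of 42 (4.8%), against 5.1% of the windows of tested genes. These counts describe letters in a window and say nothing of binding.

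The series design sets the mutant called non-cleavable against the full-length form. Of the 29 genes, 23 had a lower mean in D361E, as did 43.8% of all genes, with a median difference of -0.45, against 0.03 over all genes tested, and none passed (beside 0.0797% of all genes). The glucose transporter Slc2a1 stood at 2.28, 2.17, 4.78 and 2.30 in sets 1 to 4 of D361E and at 3.37, 3.60, 5.46 and 3.50 in WT. D361E lay below WT within each set, while its third-set array lay above 3 of the 4 WT arrays, so the groups overlapped. The difference was -1.10 ± 0.82 (SE, n = 4 arrays per group). Ankrd37 differed by -1.03 ± 0.82 and Bnip3 by -0.86 ± 0.79, and the differences of Pdk1, Pgk1 and Pfkl were -0.76, -0.70 and -0.70. The adjusted p of each was over 0.99.

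Within the sets, D361E was below WT in all 4 for 15 of 29 genes, as it was for 9.71% of all genes, and above WT in all 4 for 2 of 29 (Hk1 and Slc16a3), as for 10.5% of all genes. The 15 were Slc2a1, Pfkl, Pfkm, Pfkp, Tpi1, Pgk1, Pgam1, Eno1, Pkm2, Pdk1, Bnip3, Bnip3l, Vegfa, Ankrd37 and Kdm3a. The Slc2a1 difference within sets was -1.09, -1.43, -0.68 and -1.20. For Bnip3 it was -0.55, -1.02, -0.36 and -1.51. Ndrg1, at 0.40, -0.14, -0.69 and -0.87, did not keep a direction. With the sets as a fixed block 0 of 29 passed (0.219% of all genes), and the smallest adjusted p was that of Slc2a1, 0.101. When the 3 arrays that resembled another group were left out as well, Slc2a1 (-1.10 ± 0.17, adjusted p = 0.0024) and Pfkl (-0.70, adjusted p = 0.038) were lower and Slc16a3 was higher, 3 of 29 beside 1.61% of all genes. The 3 arrays were picked by their values, so leaving them out lowers the spread by choice.

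**Figure D4:**
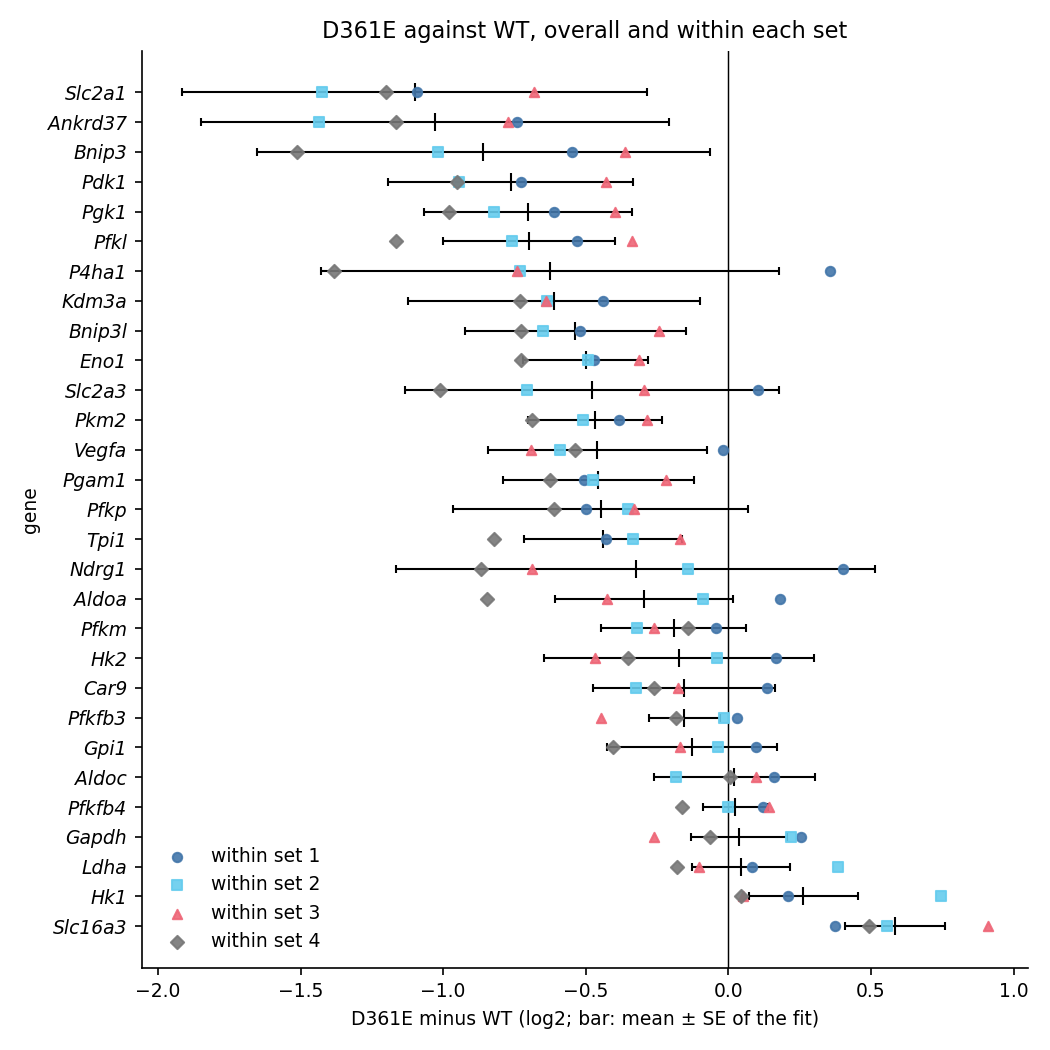
D361E minus WT (log2) for the 29 genes in order of the mean difference. Black bars give the mean ± SE of the fit and coloured points the differences within each of the 4 sets; 23 of 29 means lie left of 0, and for Slc2a1 all 4 points lie between -1.43 and -0.68 inside a wide bar.

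In D361E against VOID, which shares the D361E arrays with the comparison above, 24 of 29 means were below 0, as were 55.4% of those of all genes. The median was -0.23, against -0.03 over all genes, and 0 of 29 genes had groups apart (4.77% of all genes). A lopsided count was not particular to D361E. In p363-549 against VOID 25 of 29 means were above 0, with a median of 0.28 against 0.03 over all genes. Without the 3 unlike arrays these were 26 of 29 and 0.41 against 0.02. In WT against VOID 21 of 29 were above 0, and in both against WT 21 of 29 were below 0. Slc2a1 was at 2.67, 2.91, 5.24 and 3.51 in VOID, above D361E in every set. Its difference of -0.70 ± 0.82 passed only with the sets as a block and without the 3 arrays (adjusted p = 0.0257), as did those of Tpi1 (-0.45, adjusted p = 0.0415) and Ankrd37 (-1.08, adjusted p = 0.0458), 3 of 29 beside 4.89% of all genes. Hif1a, the oxygen-sensitive alpha subunit itself and not among the 33 genes, was higher in D361E by 1.08 ± 0.14 against VOID (adjusted p = 0.000182) and by 1.14 ± 0.14 against WT (adjusted p = 0.000228). In the third set Hif1a differed by 0.07 ± 0.09 (adjusted p = 0.563).

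Slc16a3 (MCT4), the exporter of lactate, had the smallest adjusted p in the F test. It stood at -1.70, -1.44, -1.81 and -1.63 in sets 1 to 4 of VOID, a mean of -1.64 ± 0.16 (SD, n = 4). The D361E arrays were at -1.64, -1.58, -1.53 and -1.63, a mean of -1.60 ± 0.05. In WT it was at -2.02, -2.14, -2.44 and -2.13, a mean of -2.18 ± 0.18. In p1-361 it was at -2.31, -2.24, -2.40 and -2.10, and in p363-549 at -2.22, -2.01, -2.65 and -1.93. The group both was at -1.77, -1.57, -1.85 and -2.53, the last being 1 of the 3 unlike arrays, closest to p1-361, and the other 3 overlapped with VOID. All 4 arrays of WT, of p1-361 and of p363-549 were thus below all arrays of VOID, and those of D361E lay among them. Groups apart were seen in 4.79%, 4.7% and 3.31% of all genes in these 3 comparisons.

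Slc16a3 differed from VOID by -0.54 ± 0.18 in WT (adjusted p = 0.379), by -0.62 in p1-361 (adjusted p = 0.138) and by -0.56 in p363-549 (adjusted p = 0.255), and from WT by 0.58 ± 0.18 in D361E (adjusted p = 0.621). With normexp background correction these differences were -0.10, -0.39, -0.32 and 0.16, none under the threshold. With the sets as a fixed block the p1-361 difference passed (adjusted p = 0.0441, 2.98% of all genes). Without the 3 arrays, and with no block, the adjusted p was 0.0138 in p1-361 and 0.0376 in p363-549. With that block and without the 3 arrays it was 0.00559 in WT, 0.0013 in p1-361, 0.00403 in p363-549 and 0.00604 for D361E against WT. In that last fit 616 of 15305 genes passed in WT against VOID (4.02%). The gene's other probe gave a D361E minus WT difference of 0.58 as well.

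Pfkfb3, whose product raises fructose-2,6-bisphosphate, was lowest in the group both, with 0.11, 0.44, -0.05 and 0.49 in sets 1 to 4. In VOID it was at 0.63, 0.54, 0.77 and 0.68, and in WT at 0.59, 0.58, 0.69 and 0.64. In p1-361 it was at 0.47, 0.45, 0.26 and 0.33, in D361E at 0.62, 0.56, 0.24 and 0.46, and in p363-549 at 0.80, 0.68, 0.73 and 0.48. The arrays of both and of p1-361 lay below all of VOID and all of WT, as 9.93% and 4.7% of all genes had groups apart from VOID and 7.49% and 2.74% from WT. D361E, WT and p363-549 overlapped with VOID. The difference of both from VOID was -0.41 ± 0.13 (adjusted p = 0.0694) and from WT -0.38 ± 0.13 (adjusted p = 0.193). It passed against VOID with the sets as a block (adjusted p = 0.0275, 16% of all genes). Without the 3 arrays the adjusted p was 0.0182 against VOID and 0.0383 against WT. The p1-361 differences were -0.28 from VOID (adjusted p = 0.583) and -0.25 from WT, and did not pass in these fits.

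A few other genes had groups that did not overlap. Against WT, p363-549 was above in Gapdh (by 0.35 ± 0.17, and -0.01 after quantile normalization), Ldha (0.36 ± 0.17, and 0.02) and Eno1 (0.31 ± 0.22) and below in Pfkfb4 (-0.24 ± 0.11), 4 of 29 where 3.79% of all genes had groups apart, and none passed the test. The Gapdh arrays of p363-549 were at 8.16, 8.12, 8.44 and 8.17 and those of WT at 7.94, 7.83, 8.05 and 7.66. For Ldha they were at 7.91, 7.70, 8.04 and 7.89 against 7.62, 7.41, 7.54 and 7.52. D361E lay below WT in Eno1, with 6.32, 6.25, 6.45 and 5.81 against 6.79, 6.74, 6.76 and 6.54, and in Pkm2, and above it in Slc16a3, 3 of 29 beside 3.59% of all genes. Pfkfb4, at 1.64, 1.70, 1.60 and 1.59 in WT, was below it in p1-361, at 1.51, 1.46, 1.54 and 1.19. In p363-549 Pfkfb4 was at 1.43, 1.41, 1.36 and 1.37.

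Several of the brightest genes were read by more than 1 probe, and the brightest did not always stand for the rest. Gapdh had 7 probes above background. The brightest, whose array coordinates lie on chromosome X while the gene is on chromosome 6, had a third-set difference of 0.26 and a D361E minus WT difference of 0.04. The other 6 had third-set differences from 0.50 to 0.81 and D361E minus WT differences from -0.33 to -0.78. For Ldha the brightest probe gave 0.24 and 0.05, against 0.63 and -0.65, and 0.38 and -0.52, for the other 2. For Hk1 the brightest, with coordinates on chromosome 5, gave 0.20 and 0.26, while those on the gene's chromosome 10 gave 0.51 and -0.40 each. The brightest probes of Pgk1 and Eno1 also have coordinates on a chromosome other than the gene's. Of the 23 dimmer probes of tested genes, 22 had a third-set difference above 0 and 22 a D361E minus WT difference below 0, the exception in each case being the second probe of Slc16a3. For Gapdh, Ldha and Hk1 the sign in D361E thus depends on the probe.

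**Figure D5:**
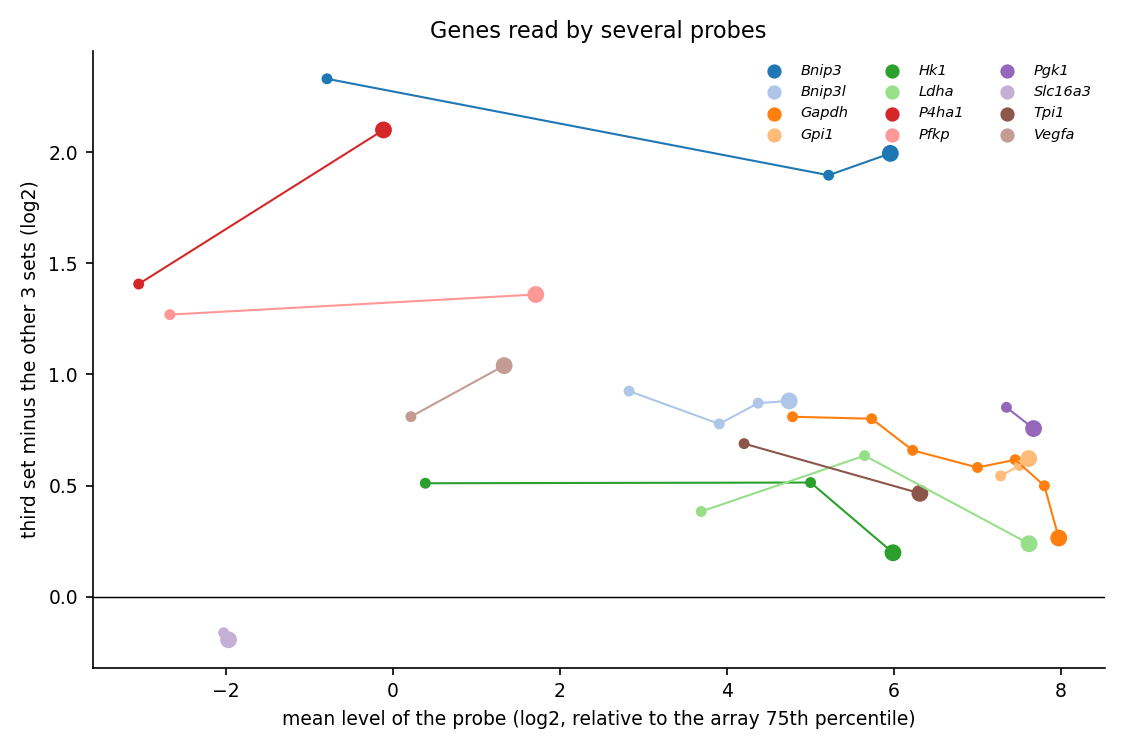
Third-set difference (log2, vertical axis) of each probe of the 12 genes read by several probes, against the probe's mean level (log2, horizontal axis), with lines joining the probes of a gene and the larger point marking the brightest probe, the one used. The line of Gapdh runs from 0.81 at a dimmer probe to 0.26 at the brightest, whereas the 4 probes of Bnip3l stay between 0.78 and 0.92.

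Related genes outside the 33 were counted in the same fits, from lists also chosen with earlier results of these data known. In the third set 26.7% of all genes tested were higher and 24.1% lower. Of 31 other hypoxia-inducible genes tested, 22 were higher there and 3 lower, with a median of 0.90. Those with the smallest p were the demethylase Kdm4b (2.39 ± 0.09), the adenylate kinase Ak4 (1.83), Insig2 (1.49) and Zfp292 (1.65). The 3 lower were Angptl4 (-1.15), Mif4gd (-0.65) and the transferrin receptor Tfrc (-0.58). Of 9 hypoxia-inducible factor subunits and regulators, 6 were higher and 0 lower. They included Egln1, a hydroxylase that marks the alpha subunits for destruction and is itself induced by low oxygen (1.78 ± 0.18), Hif3a (1.57), Arnt (0.59) and Vhl (0.51). In the group comparisons 1 of 31 hypoxia-inducible genes passed, Cxcr4, with -1.10 in both against VOID (adjusted p = 0.00382). In that comparison 4.38% of all genes tested passed.

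For neighbouring pathways of glucose use the counts were set beside 26.7% of all genes higher and 24.1% lower in the third set. They are few genes each, and nothing is read from counts near those shares. Of 13 other glycolysis genes tested, 4 were higher in the third set (Pgm1 by 1.25, Pgam2 by 1.20, Bsg by 0.98 and Pgm2 by 0.22) and 4 lower (Adpgk by -0.89, Tigar by -0.60, Eno3 by -0.22 and Bpgm by -0.21). Of 7 pentose phosphate genes 0 were higher and 2 lower, the dehydrogenases Pgd (-0.82 ± 0.09) and G6pdx (-0.53 ± 0.12). Of 11 genes of mitochondrial pyruvate use, 4 were higher (Pdk3, Pcx, Pdha1 and Pdp2, by 0.24 to 0.81) and 2 lower (Dlat by -0.42 and Pdhx by -0.57). Among these 3 lists 1 gene passed in a group comparison, Pfkfb1, higher in both than in VOID by 0.70 (adjusted p = 0.00491). There 4.38% of all genes tested passed.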

How the data were processed

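RNA of 24 samples was hybridised to one-colour Agilent arrays. The authors extracted spots with Feature Extraction 10.7.3.1, per the submitters' processing notes. Per the file headers, the column used is the processed signal, a linear intensity, and no scaling between arrays was found in it. Values in the series table were identical to it (largest difference 0). Coordinates of probes are those of the array files.

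Control spots and 185 to 312 spots per array marked as uneven were left out, and 0 spots were saturated. Repeated spots were averaged on the log2 scale after subtraction of the array's 75th percentile. A probe was kept where a group had all 4 arrays well above background, and the brightest stood for each of 15058 genes. R 4.3.3 with limma 3.58.1 (lmFit, eBayes, 18 residual and 3.06 prior degrees of freedom) gave 1 mean per group over all 24 arrays, and Benjamini-Hochberg adjustment ran over all genes tested, 2-sided, at 0.05. Standard errors are those of limma. The sets of sample numbers were compared with group in the model. The genes of the 33 and the lists beside them were chosen with earlier results of these data known. Named genes were those that passed, in each comparison the 2 with the largest difference among those whose groups did not overlap, 7 well-known genes (Gapdh, Ldha, Pkm2, Slc2a1, Hk2, Vegfa and Bnip3), Hif1a, and up to 4 genes per list, smallest p first. Others are named for counts of 5 or fewer or as members.

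Alternatives tried were normexp (offset 50), quantile normalization, the percentile over detected probes, no filter and a filter on all 24 arrays, values of the series table, slides as fixed or random blocks, sets as a fixed block, a fit on the compared groups alone, averaging over a gene's probes, the 3 unlike arrays left out and each array left out. Added after the data had been seen were the set comparisons themselves, the sets as a block together with the 3 arrays left out, and probes on the gene's own chromosome. A test on simulated data was run for WT against VOID over 15058 genes. It recovered 59% of genes changed by 1 and 86% of those changed by 2 on the log2 scale. There were 8 false calls beside 200 changed genes. Those shares are over all genes and may be too high for the glycolysis and hypoxia response genes. The median residual standard deviation within groups was 0.47 for the latter, against 0.32 over all genes tested. For Slc2a1, Bnip3 and Ankrd37 it was 1.24, 1.21 and 1.25. Recovery for genes with such a spread, or with such differences between sets, was not tested.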

Additional observations from a re-analysis of the deposited data

Results flagged for a closer look

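Among 174 groups of 4 arrays (29 genes in 6 groups), 14 held 1 array far from the other 3. The gap to the nearest array, as a share of the group's range, then exceeds 0.829, which chance gives in about 1 in 20 groups of independent arrays. The groups share their sets, so these are not independent. The 14 are 8.05% of the groups, where 6.67% of groups over all genes held such an array. Of the 14, 13 were the third-set array, as the highest, which restates the difference of that set. Over all genes 50.2% of such arrays, high or low, were of the third set.

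For Slc2a1 the share was 0.893 in WT (5.46 against at most 3.60) and 0.949 in D361E (4.78 against at most 2.30). For Kdm3a it was 0.886 in WT, 0.923 in D361E and 0.905 in p363-549, where the array was at 3.65 and the next at 1.86. Hk2 in D361E had a share of 0.894. In p363-549 the share was 0.898 for Gpi1, 0.831 for Gapdh and 0.895 for Ankrd37. In the group both it was 0.933 for Pfkp (3.02 against at most 0.98), 0.879 for Pgk1 and 0.901 for Pdk1. P4ha1 in VOID had a share of 0.862. The remaining one was Aldoa in D361E, whose array in the fourth set was the lowest, at 7.91 against 8.78 for the next, with a share of 0.912.

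In 3 cases every set moved one way against VOID in D361E and the opposite way in a fragment group. The differences between these effects were not tested. The 3 are 1.03% of 290 combinations of gene and pair of constructs, against 0.878% over all genes, and each includes replicate 4 of p363-549 or of both, arrays closer to another group than to their own. Slc2a1 was lower in D361E and higher in p363-549 in all 4 sets, with means of -0.70 and 0.41 and a gap of -1.112. It was also higher in both in all 4 sets, with a mean of 0.62 and a gap of -1.323. Pfkp was lower in D361E and higher in p363-549 in all 4 sets, with means of -0.43 and 0.33 and a gap of -0.764.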

How the results depend on the processing

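The third-set result held in all 35 settings run: 19 to 25 of 29 genes were higher, beside 11.7% to 32.8% of all genes, with the fewest, 19, after quantile normalization (22.1% of all genes). Leaving out each array in turn gave 21 to 25. Genes near the threshold depended on the setting. Ldha passed in 7 of 35 settings, Pkm2 in 6, Hk1 in 3 and Slc16a3, as lower, in 2. Eno1 no longer passed in 6 of 34 settings, Gapdh in 5 of 35, and Aldoa, Aldoc and Tpi1 in 1 each. The group comparisons stayed at 0 of 29 in most settings. With the percentile over detected probes 1 gene passed in both against VOID and 1 in the F test. With the 3 unlike arrays left out 1 passed in each of p1-361, p363-549 and both against VOID and in both against WT, and 3 in the F test. With the sets as a fixed block and those arrays left out 1 passed in WT, 3 in D361E, 3 in p1-361, 2 in p363-549 and 4 in both against VOID, 3 in D361E and 3 in both against WT, and 14 in the F test. Leaving out each array in turn gave 0 to 1 in p1-361 and in both against VOID and in the F test, and 0 in the other comparisons.

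Same-numbered sets do not pair the samples by their labels. Over 60 pairs of arrays of 1 set, deviations from the group means had a median correlation across genes of 0.41, from -0.34 to 0.76, with 47 pairs over 0.1. As a replicate block, the sets gave 1 gene in p1-361 and 1 in both against VOID and 3 in the F test. The number of arrays and the signal near background limit what dim genes can show.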

Other observations

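Beyond the 33 genes, the protein-coding genes with the largest third-set differences, chosen after their values were seen, were mixed in kind. The 5 highest were Gipr, a receptor of a gut hormone (3.04 ± 0.39), Ldc1 (2.87 ± 0.59), Hsd3b4 (2.83 ± 0.51), Ero1a, an oxidase of protein folding that low oxygen is known to induce (2.69 ± 0.26), and Retn (2.64 ± 0.38). The 5 lowest were Shmt1, a folate enzyme (-2.03 ± 0.18), Fry (-1.99 ± 0.15), Tmem238 (-1.92 ± 0.20), Tssk6 (-1.91 ± 0.17) and Trmt61a (-1.78 ± 0.15). All 10 passed in limma's test. By rank among all 15058 genes tested, of any kind, Slc2a1 was at 13, Ndrg1 at 14, Ankrd37 at 19, P4ha1 at 22 and Bnip3 at 28.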
